A study of Mus musculus with 48 samples.

Results

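The Hox genes of the mouse were followed through reprogramming of mouse embryonic fibroblasts (MEFs) to induced pluripotent stem cells (iPSCs). A transcript row was taken as a member when its symbol was Hox, a cluster letter from a to d and a paralog number, which gave 39 of the 24264 transcripts listed. The 48 libraries fell into 20 conditions of 2 or 3 libraries each. Doxycycline drove a polycistronic cassette of Oct4, Sox2, Klf4 and c-Myc, placed in the order MKOS or OKMS together with a CAG-driven rtTA in the third intron of Sp3, in cells that also carried a Nanog-GFP reporter (TNG), and vitamin C was added.

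Starting cells were WT, MKOS and OKMS MEFs (2 libraries each), and the transgenic MEFs came from chimaeric embryos made with TNG MKOS or TNG OKMS embryonic stem cells (ESCs) and were diluted among WT MEFs for reprogramming. Populations sorted at day 10 (3 libraries each) were 2NG- (CD44- ICAM1- Nanog-GFP-), 3NG- (CD44- ICAM1+ Nanog-GFP-) and 3NG+ (CD44- ICAM1+ Nanog-GFP+). The series design gives day 10 for them, whereas the growth protocol names 10 or 15 days without saying for which samples. All MKOS populations and the OKMS 3NG+ cells were E-CAD+, whereas OKMS 2NG- and 3NG- cells were collected both as E-CAD+ and as E-CAD-. Pluripotent cells (2 libraries each) comprised ESCs of the lines E14, TNG, TNG OKMS and TNG MKOS. They also comprised OKMS and MKOS iPSCs, grown without doxycycline or in 2i, and D6, a single line made with a piggyBac MKOS transposon. The labels do not say whether the iPSCs without doxycycline and those in 2i are the same lines, so differences between lines and between culture conditions cannot be told apart. The labels do not say whether replicates came from separate embryos or cultures, so p-values here measure only the spread between these libraries.

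Hox genes encode homeodomain transcription factors that give cells their position along the body and limb axes. Low paralog numbers, at one end of each cluster, act in the hindbrain and neck, and high numbers, at the other end, act in the lower trunk, genitalia and distal limb. Fibroblasts keep the Hox pattern of the site they came from, Polycomb repressive complexes hold the clusters silent in ESCs, TALE homeodomain proteins (Pbx, Meis) bind DNA together with Hox proteins, and retinoic acid switches on the low-numbered genes.

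In GRCm38 coordinates the HoxA cluster (11 genes, minus strand) spans chr6:52155367-52260880, HoxB (10 genes, plus strand) chr11:96194316-96368254, HoxC (9 genes, plus strand) chr15:102921131-103036856 and HoxD (9 genes, plus strand) chr2:74668225-74765142. Sp3, the gene that carries the transgene, lies on the same chromosome as HoxD, 1.69 Mb away. Annotated gene spans of Hoxa3, Hoxb3, Hoxd3 and Hoxd10 overlap neighbouring Hox genes. The counted transcripts of Hoxb3 (from 96323025) and Hoxd10 (from 74691790) are listed past the ends of Hoxb4 (96321638) and Hoxd11 (74687016). For Hoxa3 and Hoxd3, reads in shared stretches could have been assigned to either gene. RefSeq promoters (GRCm38.p6) were at hand for 22 of the 39 genes (24 promoters). Within 250 bases upstream of the start they held a median of 12.5 CpG dinucleotides (range 2 to 35), against 6 in all 32851 promoters. Promoters are shown for the 4 genes called lower in MKOS 2NG- cells than in MKOS MEFs (Hoxd12, Hoxd10, Hoxd8 and Hoxa13) and for 2 HoxA genes that still had reads in every MKOS 2NG- library (Hoxa7 and Hoxa11). Each is the 250 bases upstream of the start, 5′ to 3′ on the gene's strand, with CpG dinucleotides in capitals. For Hoxd8 this is the RefSeq start at 74704615, whereas the counted transcript is listed from position 74705388, so the stretch shown does not adjoin it.
Hoxd12 (chr2:74674763-74675012, plus strand): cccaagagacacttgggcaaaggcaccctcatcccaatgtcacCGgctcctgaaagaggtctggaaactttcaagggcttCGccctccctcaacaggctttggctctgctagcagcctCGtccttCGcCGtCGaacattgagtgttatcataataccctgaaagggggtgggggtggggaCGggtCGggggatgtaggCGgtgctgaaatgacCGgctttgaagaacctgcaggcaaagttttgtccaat
Hoxd10 (chr2:74691641-74691890, plus strand): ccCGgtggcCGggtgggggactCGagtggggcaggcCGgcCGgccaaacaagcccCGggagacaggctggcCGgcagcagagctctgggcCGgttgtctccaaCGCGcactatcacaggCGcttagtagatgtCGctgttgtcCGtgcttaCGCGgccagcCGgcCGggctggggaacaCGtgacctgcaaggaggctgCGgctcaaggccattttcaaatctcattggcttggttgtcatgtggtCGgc
Hoxd8 (chr2:74704365-74704614, plus strand): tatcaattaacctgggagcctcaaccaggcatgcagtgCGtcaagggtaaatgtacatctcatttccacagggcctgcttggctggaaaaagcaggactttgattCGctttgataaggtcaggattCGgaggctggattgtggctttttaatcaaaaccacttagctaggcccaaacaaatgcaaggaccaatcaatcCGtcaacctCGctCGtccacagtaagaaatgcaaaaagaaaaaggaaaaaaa
Hoxa13 (chr6:52260881-52261130, minus strand): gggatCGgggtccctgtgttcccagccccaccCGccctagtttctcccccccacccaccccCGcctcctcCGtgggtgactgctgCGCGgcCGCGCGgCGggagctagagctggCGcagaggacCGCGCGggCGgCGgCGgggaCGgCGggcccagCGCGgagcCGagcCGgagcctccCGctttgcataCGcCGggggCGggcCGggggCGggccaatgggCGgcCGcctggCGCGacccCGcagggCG
Hoxa7 (chr6:52218574-52218823, minus strand): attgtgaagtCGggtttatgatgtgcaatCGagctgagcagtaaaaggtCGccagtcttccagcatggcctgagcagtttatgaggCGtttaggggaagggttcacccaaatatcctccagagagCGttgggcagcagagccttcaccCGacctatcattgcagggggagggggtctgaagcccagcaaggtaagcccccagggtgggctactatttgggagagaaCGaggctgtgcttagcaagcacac
Hoxa11 (chr6:52245811-52246060, minus strand): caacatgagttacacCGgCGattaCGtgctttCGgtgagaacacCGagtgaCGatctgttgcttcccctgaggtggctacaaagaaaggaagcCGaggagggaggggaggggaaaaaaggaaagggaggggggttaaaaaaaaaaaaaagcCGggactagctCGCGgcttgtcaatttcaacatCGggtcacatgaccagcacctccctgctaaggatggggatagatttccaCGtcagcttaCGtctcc
The 4 promoters of genes called lower held 10, 20, 6 and 35 CpG dinucleotides in that order, and those of Hoxa7 and Hoxa11 held 7 and 13, so the ranges overlap. On either strand, the Pbx-Hox motif TGATNNAT was found in 4 of the 24 Hox promoters (16.7%, against 7.68% of all promoters), and the nuclear receptor half-site AGGTCA in 6 (25%, against 14%), Hoxd10 and Hoxd8 among them.

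Hox reads were few. They made up 18324 of 337568013 transcript reads (0.00543%). Libraries held 1429717 to 14174725 transcript reads (median 6243254), with the lowest depth in OKMS 3NG+ replicate 2. Levels are given as CPM, a gene's reads divided by all transcript reads of its library and scaled to a common total. At these depths 3 reads correspond to 0.212 to 2.10 CPM, and intervals or floors built on reads cover counting error only. Library preparation captured the 5′ ends of transcripts, so a gene's CPM does not grow with transcript length. Since the RNA is from many cells, fewer cells with a Hox transcript and less Hox RNA per cell cannot be told apart. Of the 39 genes, 34 passed the filter on low counts and were tested, and Hoxb1, Hoxc11, Hoxc12, Hoxd1 and Hoxa6 were not. A tested gene without reads in a condition had passed through other conditions and could not be called higher there. The summed level of 16 fibroblast markers, given beside the results, was 3621 to 6365 CPM in MEFs and 13.2 to 23.1 CPM in ESCs, with reads for all 16 in both. Its part in the Hox levels was not tested.

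MEFs expressed Hox genes of all 4 clusters, and ESCs nearly none. The 39 genes summed to 202 ± 56.8 CPM (SD, n = 6) in MEFs, with a lowest library of 150 and a highest of 299 CPM, and to 4.17 ± 2.35 CPM (SD, n = 8) in ESCs, with a range of 1.08 to 7.44 CPM. The lowest MEF library thus lay far above the highest ESC library. Between 32 and 36 Hox genes had at least 1 read in each MEF library, and 4 to 10 in each ESC library. The plot of Hox genes by library shows the MEF columns filled across all clusters and the ESC columns with few genes. Reads were found for 2 to 6 Hox genes in each iPSC library without doxycycline, for 10 to 15 in 2i and for 17 in both D6 libraries.

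**Figure D1:**
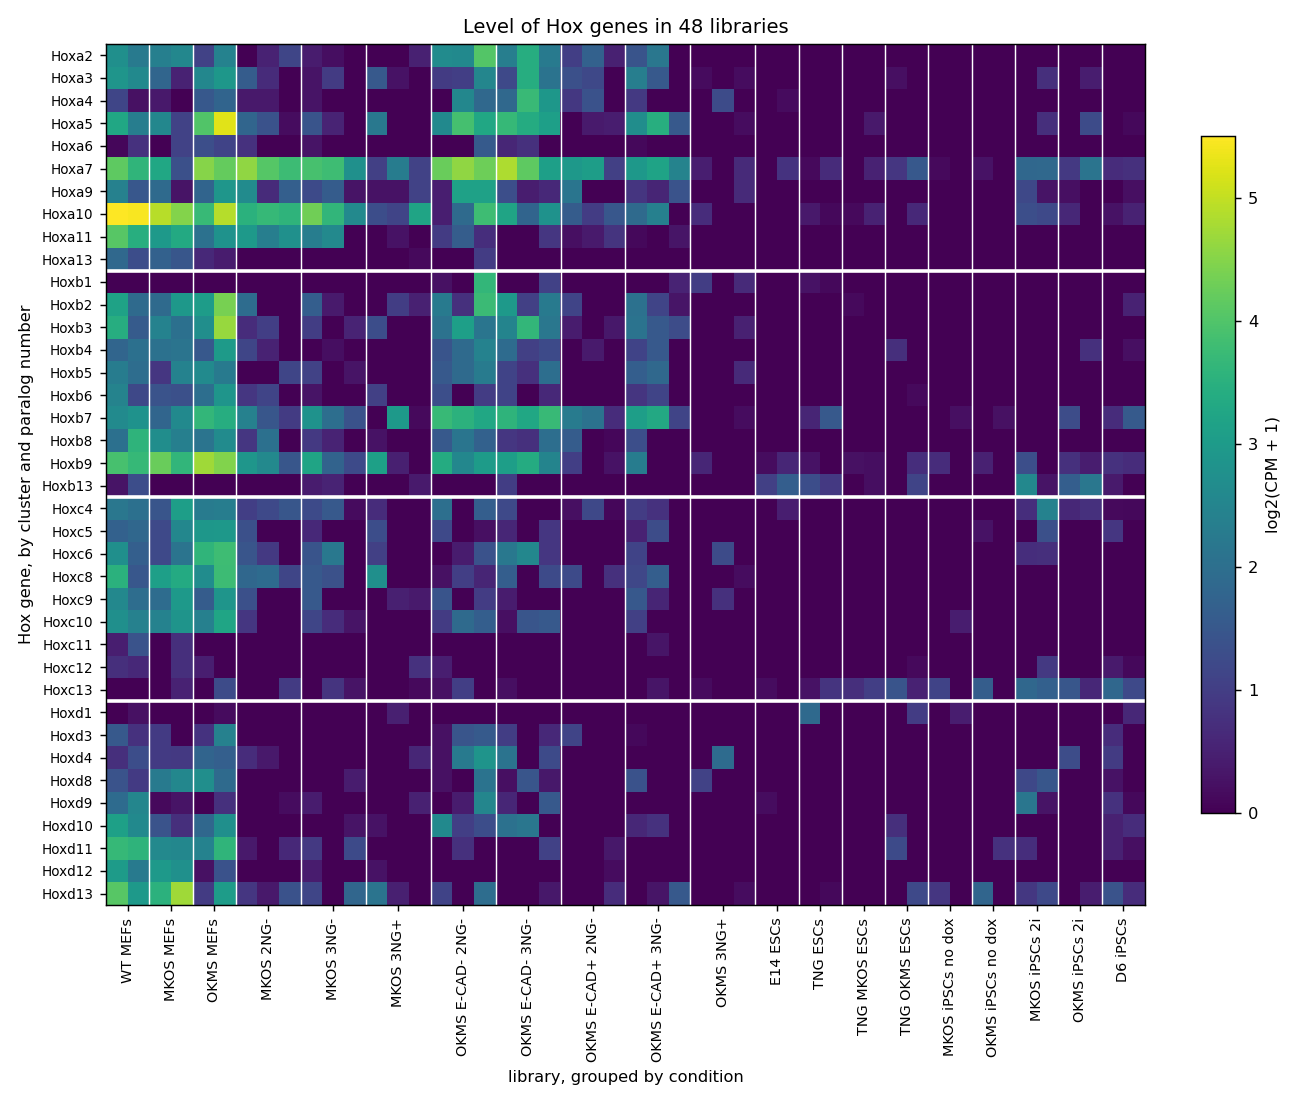
Level of single Hox genes (rows, by cluster and paralog number) in each of the 48 libraries (columns, by condition), as log2(CPM + 1). Of all 39 genes, the MEF libraries have 32 to 36 with reads, the ESC libraries 4 to 10 and the sorted libraries 4 to 32.

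Between ESCs and MEFs, 32 of the 34 tested Hox genes were called lower and none higher (edgeR quasi-likelihood test, false discovery rate of at most 0.05). Across all 15630 genes tested, 30.4% were lower and 29.6% higher. Tested Hox genes without an ESC read had passed the filter on low counts through other conditions and could not be called higher. Hoxd1, with 36 reads in ESCs and 2 in MEFs, did not pass it, so the count depends in part on the filter. The median log2 fold change of the tested Hox genes was -7.21, beside a median of 0 over all genes, and -6.58 when genes without ESC reads were set at their bound of 3 reads over the group. DESeq2 called 28 of the 34. Hoxa10, a trunk and limb gene of the AbdB class, was the highest in MEFs. Its 6 MEF libraries ran from 12.1 through a median of 28.8 to 44.4 CPM, and its 8 ESC libraries from 0 through 0.0925 to 0.547 CPM. The groups did not overlap, and the mean was 163-fold lower in ESCs (log2 fold change -7.69 ± 0.78 SE, adjusted p = 7.46e-11). Hoxb9, a thoracic gene, averaged 16.9 CPM in MEFs (11.3 to 25.4) and 0.228 CPM in ESCs, 74.4-fold lower. Hoxa7, also a trunk gene, averaged 12.8 CPM in MEFs (1.55 to 21.5) and 0.573 CPM in ESCs (0 to 1.86), 22.4-fold lower. Its lowest MEF library, MKOS MEF replicate 2, lay below its highest ESC library.

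The other genes among the 12 highest in MEFs covered every cluster and most of the axis. Hoxa5, needed in the lung and neck, averaged 11.9 CPM (1.11 to 37.3), with its highest value in OKMS MEF replicate 2. Hoxd13, a digit and genital gene, averaged 11.1 CPM (0.928 to 25.3), and its neighbour Hoxd11, which patterns the forearm, 8.07 CPM (4.45 to 11.9). Hoxa11, the forearm gene of HoxA, averaged 8.47 CPM (3.16 to 15.9) and had no read in any ESC library, at least 196-fold lower. The hindbrain genes Hoxb3 and Hoxb2 averaged 8.14 and 7.85 CPM. The trunk genes Hoxc8, Hoxb7 and Hoxc6 averaged 7.88, 6.67 and 6.09 CPM. Of these 12, Hoxa11, Hoxb3, Hoxc8 and Hoxc6 had no ESC reads. Over all 39 genes, 18 had no read in the 8 ESC libraries.

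The remaining 27 genes averaged 0 to 5.57 CPM in MEFs, from Hoxb1 to Hoxc10. Among them, Hoxb8 averaged 5.40 CPM, Hoxa3 4.27 CPM, Hoxc4 3.97 CPM, Hoxa9 3.00 CPM, Hoxd3 1.44 CPM, Hoxd4 1.42 CPM and Hoxa4 0.993 CPM, and all 7 were called lower in ESCs. The neck genes Hoxa4 and Hoxd4 were low in MEFs and had more reads in some E-CAD- libraries. Hoxa4 had 1.86 and 2.40 CPM in OKMS MEFs and 2.64, 12.2 and 6.53 CPM in OKMS E-CAD- 3NG- cells, all above the MEFs, and 0, 4.81 and 2.61 CPM in E-CAD- 2NG- cells, which overlapped them. Hoxd4 had 2.41 and 2.18 CPM in OKMS MEFs, 0.190, 3.78 and 6.20 CPM in E-CAD- 2NG- cells and no read in either E-CAD+ Nanog-GFP- population.

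Only Hoxb13 and Hoxc13, which act in the tail and prostate and in hair and nails, were not called among the tested genes. Hoxb13 had 62 reads over the 8 ESC libraries (0 to 2.11 CPM) and 11 over the 6 MEF libraries, all of them in WT MEFs (0.226 and 1.46 CPM). Its log2 fold change was 3.14 ± 1.45 SE (adjusted p = 0.0645). Hoxc13 averaged 0.616 CPM in ESCs and 0.303 CPM in MEFs (log2 fold change 1.71 ± 1.18 SE, adjusted p = 0.217). Hoxb1, a hindbrain gene, had no read in any MEF library and 3 reads in ESCs. Hoxd1 had 36 ESC reads, 27 of them in TNG ESC replicate 1 and 9 in TNG OKMS ESC replicate 2, and 2 reads in MEFs. Hoxa6, Hoxc11 and Hoxc12 had 28, 17 and 17 reads in MEFs and 0, 0 and 1 in ESCs.

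The 3 kinds of MEFs were also compared. The sums were 242 and 177 CPM in WT MEFs, 150 and 167 CPM in MKOS MEFs and 179 and 299 CPM in OKMS MEFs. No tested Hox gene was called between OKMS and MKOS MEFs in edgeR (0 at an unadjusted p of 0.05 or less, and 0 calls in DESeq2), where 0.0768% of all genes were higher and 0.0256% lower, and 3 Hox genes were called when these conditions were fitted alone. Between transgenic and WT MEFs there were also 0 calls (edgeR, 2 genes at an unadjusted p of 0.05 or less, and 0 calls in DESeq2), against 0.25% of all genes higher and 0.467% lower. Those 2 genes were Hoxb13 and Hoxd9, a limb and trunk gene, with 2.79 and 4.75 CPM of Hoxd9 in WT MEFs and 0 to 0.687 CPM in the 4 transgenic libraries. The make-up of the Hox reads nevertheless varied. Paralogs 11 to 13 took 21.6% of Hox reads in WT MEFs (20.6% and 22.6%) and 25.1% in MKOS MEFs (21.0% and 29.1%), and 7.32% in OKMS MEFs (5.39% and 9.26%). Hoxd12, a distal limb gene, had 7.09 and 3.83 CPM in WT, 6.86 and 5.76 CPM in MKOS and 0.186 and 1.60 CPM in OKMS MEFs. OKMS MEFs were the lowest, and the difference to MKOS MEFs was not called (log2 fold change -2.91 ± 2.10 SE, adjusted p = 0.91).

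At day 10 the sum of Hox genes was lower than in the matching MEFs in every sorted population. MKOS 2NG- libraries held 79.9, 56.2 and 45.1 CPM, 38.2% of the MKOS MEF mean. OKMS E-CAD- 2NG- libraries held 82.3, 106 and 160 CPM, 48.5% of the OKMS MEF mean. OKMS E-CAD+ 2NG- libraries held 27.4, 19.3 and 7.55 CPM, 7.57% of the OKMS MEF mean. No sorted 2NG- library reached the lowest library of its own MEFs. The OKMS E-CAD+ libraries were all below the MKOS ones, and those below all OKMS E-CAD- ones. Fibroblast markers summed to 518 to 953 CPM, 688 to 852 CPM and 91.2 to 326 CPM in these 3 populations. The plot of cluster sums shows the same order of means in all 4 clusters.

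**Figure D2:**
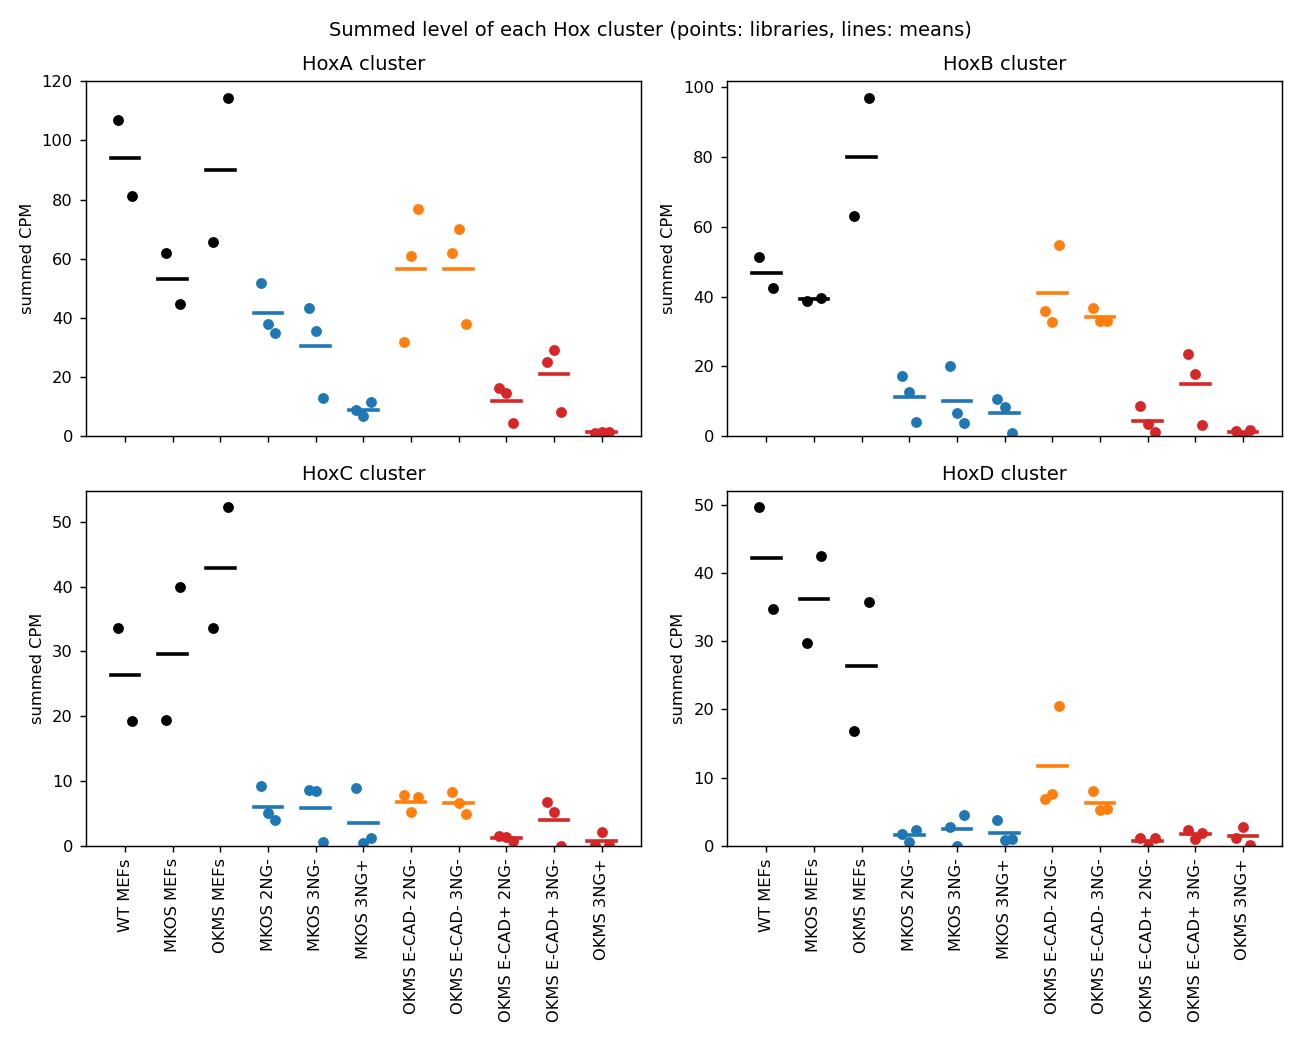
Summed CPM of HoxA, HoxB, HoxC and HoxD genes (1 panel each) in MEFs and sorted populations, where points are libraries and lines are means. HoxA stays at 41.6 CPM in MKOS 2NG- cells against 53.2 CPM in MKOS MEFs, while HoxD goes from 36.2 to 1.54 CPM.

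The clusters did not fall alike. In MKOS 2NG- cells HoxA held 78.2% of its MKOS MEF level, with library sums of 51.8, 38.1 and 35.0 CPM that overlapped the 61.9 and 44.5 CPM of the MEFs. HoxB held 28.6%, HoxC 20.4% and HoxD 4.27%, and none of these overlapped the MEF libraries. The overlap in HoxA was lost without MKOS 2NG- replicate 1 or MKOS MEF replicate 2, and HoxC held 31.2% without the latter. HoxA took 70.0% ± 6.61 (SD, n = 3) of the Hox reads in MKOS 2NG- cells and 34.0% in MKOS MEFs. OKMS E-CAD- 2NG- cells held 62.8% of HoxA, 51.4% of HoxB, 15.9% of HoxC and 44.2% of HoxD, and here HoxA and HoxD overlapped the OKMS MEFs. Both overlaps were lost without E-CAD- 2NG- replicate 3 or OKMS MEF replicate 1. The HoxD value was 27.3% without E-CAD- 2NG- replicate 3 and 68.9% without OKMS MEF replicate 2. In OKMS E-CAD+ 2NG- cells HoxA held 13%, HoxB 5.53%, HoxC 2.80% and HoxD 2.85%, all below the MEF libraries, and HoxA again took the largest share of reads, 64.6% ± 9.01 (SD, n = 3) against 37.4% in OKMS MEFs. Without replicate 1 of these cells HoxB held 2.97%, and without OKMS MEF replicate 2 HoxD held 4.44%. By paralog number, MKOS 2NG- cells held 28.2% of the MEF level of paralogs 1 to 4, 68.0% of 5 to 8, 36.0% of 9 and 10 and 17.8% of 11 to 13. The value for 5 to 8 rests on Hoxa7, since every other gene of that class had a lower mean than in MKOS MEFs. OKMS E-CAD- 2NG- cells held 69.8%, 47.9%, 39.5% and 19.6% of the same 4 classes. For paralogs 1 to 4 of the E-CAD- cells the value was 43.1% without replicate 3 and 124% without OKMS MEF replicate 2, and for 11 to 13 it was 38.0% without that MEF library, so the order of these classes rests on single libraries. These sums were described without a test.

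**Figure D3:**
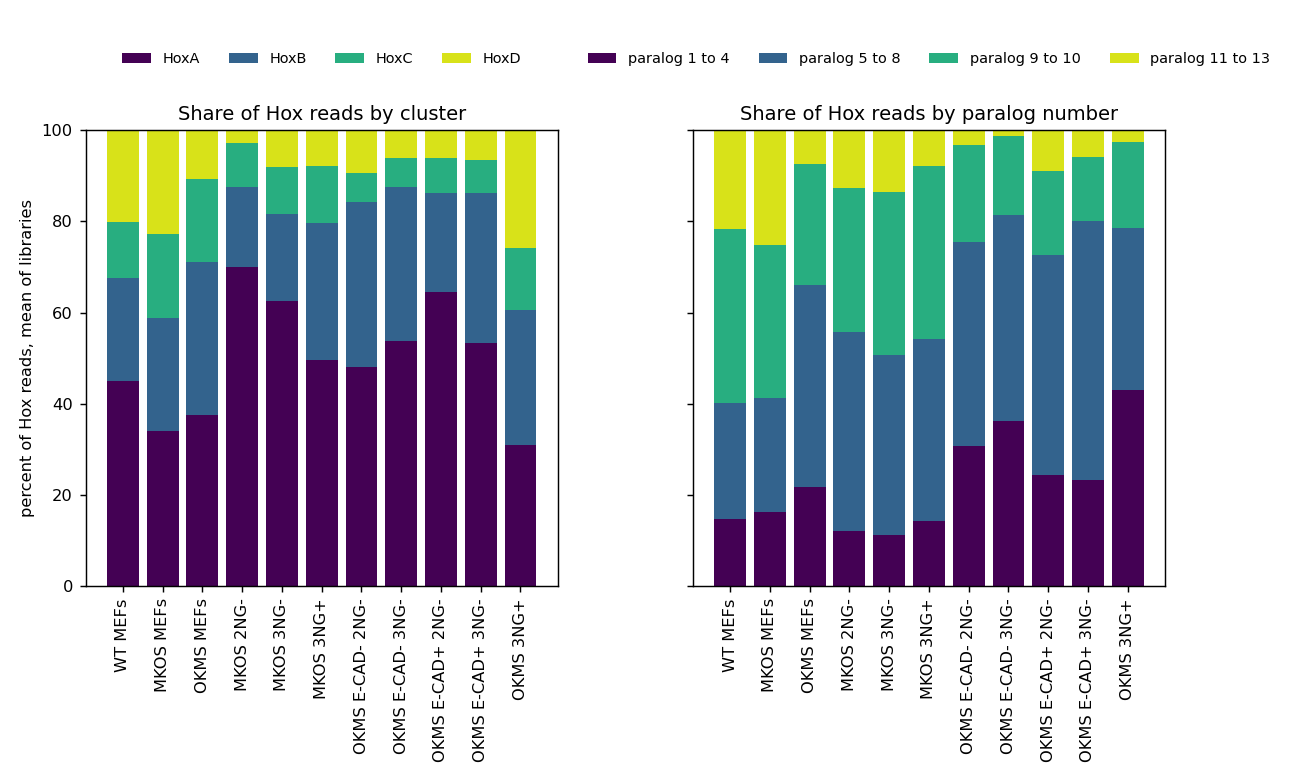
Share of Hox reads (percent, mean of the libraries of a condition) by cluster on the left and by paralog number on the right, in MEFs and sorted populations. HoxA rises from 34.0% in MKOS MEFs to 70.0% in MKOS 2NG- cells, and paralogs 11 to 13 are at 25.1% in MKOS and 7.32% in OKMS MEFs.

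From MKOS MEFs to MKOS 2NG- cells, 4 of the 34 tested Hox genes were called lower and none higher. That is 11.8% of them, beside 12% of all genes called lower (15.0% were higher), so the count itself does not set the Hox genes apart. The median log2 fold change was -1.87 (-1.92 with bounds), against 0 over all genes. All 4 had no read in any MKOS 2NG- library. Hoxd12 had 6.86 and 5.76 CPM in MKOS MEFs and was at least 50.4-fold lower (adjusted p = 0.00928). Hoxd8, a trunk gene, had 3.79 and 4.87 CPM and was at least 34.6-fold lower (adjusted p = 0.0172). Hoxa13, a digit and genital gene, had 2.25 and 1.77 CPM and was at least 16.1-fold lower (adjusted p = 0.0371). Hoxd10, a limb and lumbar gene, had only 1.64 and 0.665 CPM and was at least 9.19-fold lower (adjusted p = 0.0311). The called set thus held 3 HoxD genes and the last gene of HoxA. DESeq2 called none of the 4, and without MKOS 2NG- replicate 2, MKOS 2NG- replicate 3 or MKOS MEF replicate 1 the count was 1, 2 and 2.

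Other HoxA genes kept reads in MKOS 2NG- cells. Hoxa7 had 23.2, 15.5 and 12.6 CPM there, and 8.70 and 1.55 CPM in MKOS MEFs. All 3 sorted libraries lay above both MEF libraries, and the difference was not called (log2 fold change 1.61 ± 0.84 SE, adjusted p = 0.152). Hoxa10 had 10.4, 12 and 11 CPM, below both MKOS MEF libraries (29.0 and 21.5 CPM), with a log2 fold change of -1.24 ± 0.92 SE (adjusted p = 0.333). Hoxa11 had 6.84, 4.13 and 5.83 CPM against 6.86 and 9.08 CPM, with the highest sorted library just below the lower MEF library (log2 fold change -0.53 ± 1.33 SE, adjusted p = 0.82). By contrast, Hoxa13, at the end of the same cluster, was at 0.

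In OKMS E-CAD- 2NG- cells several Hox genes stayed near their MEF level. No Hox gene was called against OKMS MEFs in edgeR (5 at an unadjusted p of 0.05 or less, namely Hoxc8, Hoxc6, Hoxd12, Hoxd11 and Hoxa10, and 0 calls in DESeq2), while 10.1% of all genes were lower and 11.7% higher. The median log2 fold change was -1.22 (-1.25 with bounds). Hoxa7 had 18.0, 23.0 and 18.6 CPM, within or just above the 21.5 and 17.4 CPM of OKMS MEFs (log2 fold change -0.02 ± 0.79 SE). Hoxb7 had 12.1, 10.6 and 8.64 CPM against 11.5 and 9.73 CPM (log2 fold change -0.06 ± 1.18 SE). Both sets of libraries overlapped. Hoxd12 had no read in the 3 libraries, against 0.186 and 1.60 CPM in OKMS MEFs. Hoxb1 stood out in a single library. It had 70 reads (11.4 CPM) in replicate 3, 1 read in replicate 1 and none in replicate 2 or in any MEF library.

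In OKMS E-CAD+ 2NG- cells 15 of the 34 tested Hox genes were called lower than in OKMS MEFs and none higher. This is 44.1% of them, beside 13.5% of all genes called lower (15.7% were higher). The median log2 fold change was -4.46 (-3.44 with bounds). In HoxA, Hoxa5 had 15.2 and 37.3 CPM in OKMS MEFs and 0, 0.322 and 0.353 CPM in the sorted cells, 117-fold lower (adjusted p = 0.00189). Hoxa10 had 12.1 and 28.6 CPM in MEFs and 2.05, 0.967 and 1.83 CPM in the sorted cells, 12.6-fold lower (log2 fold change -3.43 ± 0.99 SE, adjusted p = 0.00777). Neither gene's groups overlapped. Hoxa7 was not called. Its sorted libraries held 6.65, 7.41 and 1.06 CPM, below both OKMS MEF libraries (log2 fold change -1.93 ± 0.80 SE, adjusted p = 0.0641).

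HoxB gave 6 of the 15 calls, more than any other cluster. Hoxb9 had 25.4 and 21.1 CPM in OKMS MEFs and 1.02, 0 and 0.212 CPM in the sorted cells, 56.5-fold lower (log2 fold change -5.60 ± 1.47 SE, adjusted p = 0.00324). Hoxb3 had 5.57 and 24.0 CPM against 0.341, 0 and 0.282 CPM, 71.3-fold lower (adjusted p = 0.00729). Hoxb2 had 7.24 and 19.7 CPM against 1.19, 0 and 0 CPM, 33.9-fold lower (adjusted p = 0.0471). For all 3, each sorted library lay below both MEF libraries. Hoxb5 and Hoxb6 had no reads left and were at least 34.6-fold and at least 35.7-fold lower (adjusted p = 0.0132 and 0.0165). Hoxb4 had 1 read, in replicate 2, against 71 in OKMS MEFs (adjusted p = 0.0391).

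All 4 HoxC calls were genes with no read in the 3 sorted libraries. Hoxc6 (11.1 and 12.8 CPM in OKMS MEFs) was at least 92.4-fold lower (adjusted p = 0.00691), and Hoxc5 (6.50 and 6.64 CPM) at least 50.7-fold lower (adjusted p = 0.0209). Hoxc10 (4.27 and 8.47 CPM) was at least 49.2-fold lower (adjusted p = 0.00675), and Hoxc9 (2.04 and 6.30 CPM) at least 32.2-fold lower (adjusted p = 0.0250). In HoxD, Hoxd11 fell from 4.45 and 11.2 CPM to 0, 0 and 0.282 CPM, 83.3-fold lower (adjusted p = 0.0341). Hoxd8 and Hoxd10 had no reads left and were both at least 32.1-fold lower (adjusted p = 0.0209 and 0.0102). The called genes thus ran from paralog 2 to paralog 11 and touched every cluster. DESeq2 called 8 Hox genes, and the count was also 8 without OKMS E-CAD+ 2NG- replicate 3 and without OKMS MEF replicate 2.

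**Figure D4:**
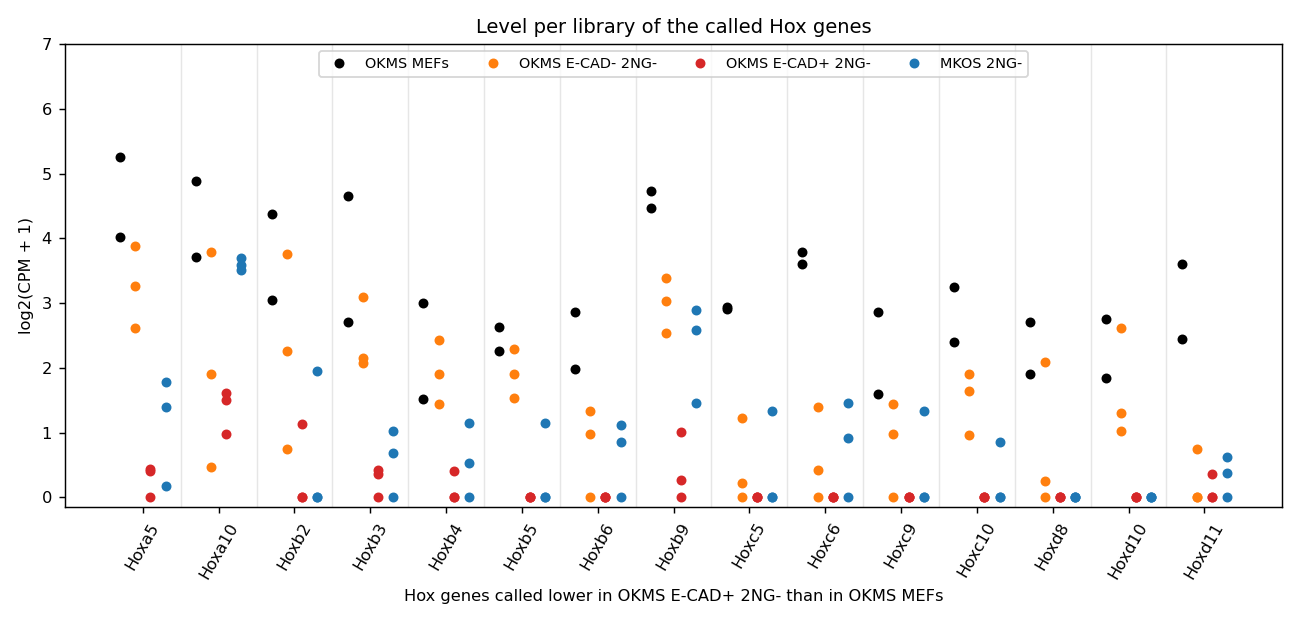
Level per library, as log2(CPM + 1), of the 15 Hox genes called lower in OKMS E-CAD+ 2NG- cells than in OKMS MEFs, shown in MEFs and 2NG- populations. The E-CAD+ OKMS points sit at or near 0 for most of the genes, below the OKMS MEF points.

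Set side by side at 2NG-, the MKOS and OKMS E-CAD+ populations had 0 Hox genes called in edgeR (8 at an unadjusted p of 0.05 or less, and 0 calls in DESeq2), against 2.84% of all genes higher and 2.23% lower in MKOS. The median log2 difference, MKOS minus OKMS, was 1.54 (1.5 with bounds). In 5 genes (Hoxb9, Hoxa7, Hoxa10 and Hoxa11 among them) every MKOS library was above every OKMS library, 14.7% of those tested and near the 16.9% of all genes, and no Hox gene did the opposite (8.07% of all genes). The largest difference by p was in Hoxa10, with 10.4, 12 and 11 CPM against 2.05, 0.967 and 1.83 CPM (log2 difference 2.61 ± 0.93 SE, adjusted p = 0.10). Hoxa7 differed by 1.75 ± 0.74 SE (adjusted p = 0.181) and Hoxa11 by 3.46 ± 1.36 SE (adjusted p = 0.151). Without the filter on low counts 2 Hox genes were called, and also 2 when these conditions were fitted alone.

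Within OKMS 2NG- cells, E-CAD+ and E-CAD- libraries were also compared. In 11 Hox genes every E-CAD+ library was below every E-CAD- library, 32.4% of those tested, beside 11.3% of all genes, and in none was the order the opposite (5.74% of all genes). They were Hoxb9, Hoxb7, Hoxb5, Hoxb4, Hoxb3, Hoxc10, Hoxd10, Hoxd4, Hoxa2, Hoxa5 and Hoxa7. None was called in edgeR (15 at an unadjusted p of 0.05 or less), where 0.691% of all genes were lower and 1.69% higher, and DESeq2 called 1 Hox gene. The median log2 difference was -3.17 (-2.05 with bounds). Hoxa5 had 5.12, 13.7 and 8.64 CPM in E-CAD- and 0, 0.322 and 0.353 CPM in E-CAD+ cells (log2 difference -5.00 ± 1.49 SE, adjusted p = 0.0668). Hoxd10 had 5.12, 1.03 and 1.47 CPM in E-CAD- cells and no read in E-CAD+ cells (adjusted p = 0.0868). The fibroblast markers moved with this difference too (688 to 852 CPM against 91.2 to 326 CPM).

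The 3NG- populations were closer to each other. OKMS E-CAD- 3NG- libraries held 115, 115 and 81.1 CPM of Hox genes, MKOS 3NG- libraries 74.6, 50.7 and 21.7 CPM, and OKMS E-CAD+ 3NG- libraries 57.6, 53.3 and 13.4 CPM. The MKOS and OKMS E-CAD+ ranges overlapped, and replicate 3 was the lowest of each. OKMS E-CAD+ cells held 17.3% of the OKMS MEF level at 3NG-, above the 7.57% at 2NG-, with overlapping libraries. No Hox gene was called in edgeR when MKOS 3NG- cells were set against the E-CAD+ OKMS ones (6 at an unadjusted p of 0.05 or less, and 0 calls in DESeq2), against 1.38% of all genes higher and 0.787% lower in MKOS. Hoxa10 was higher in every MKOS library (1 Hox gene, beside 15.3% of all genes), and Hoxb3 and Hoxa5 were lower in every MKOS library (2 genes, beside 6.44%). Hoxa5 had 1.68, 0.472 and 0 CPM in MKOS and 5.53, 10.0 and 1.88 CPM in OKMS cells (log2 difference -3.05 ± 1.30 SE, adjusted p = 0.255). Between E-CAD+ and E-CAD- OKMS 3NG- cells there were 0 calls in edgeR (3 at an unadjusted p of 0.05 or less, and 0 calls in DESeq2), against 0.166% of all genes lower and 1.59% higher. In 4 genes (Hoxb9, Hoxb3, Hoxa2 and Hoxa4) all E-CAD+ libraries lay below all E-CAD- ones, beside 8.91% of all genes, and in none did the order run the other way (7.28% of all genes).

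Cells with Nanog-GFP had the lowest mean Hox level among the sorted cells of each cassette. MKOS 3NG+ libraries held 32.0, 16.2 and 14.3 CPM, 13.2% of the MKOS MEF mean, and OKMS 3NG+ libraries 3.91, 6.29 and 3.43 CPM, 1.90% of the OKMS MEF mean. All 3 OKMS libraries were below the MKOS ones, below all other OKMS sorted libraries and within the range of ESCs, whereas MKOS 3NG+ and 3NG- libraries overlapped. Fibroblast markers summed to 123 to 680 CPM in MKOS and 178 to 415 CPM in OKMS 3NG+ cells, above the ESC range in both. From OKMS E-CAD+ 3NG- to 3NG+ cells 3 Hox genes were called lower, 8.82% of those tested, beside 3.21% of all genes, and none was called higher (3.06% of all genes). Hoxa7 had 6.69, 8.09 and 4.47 CPM in 3NG- and 0.378, 0 and 0.572 CPM in 3NG+ cells, 20.3-fold lower (log2 fold change -3.69 ± 0.94 SE, adjusted p = 0.0124). Hoxb7 had 127 reads in 3NG- and 1 read in 3NG+ cells (adjusted p = 0.0191), and Hoxa5 had 112 and 1 (adjusted p = 0.0362). For each of the 3 genes all 3NG+ libraries were below all 3NG- libraries. DESeq2 called 3 Hox genes too. The count was 0 without OKMS 3NG+ replicate 1, and 1 without 3NG+ replicate 3 or without E-CAD+ 3NG- replicate 1 or 2.

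In MKOS cells the step from 3NG- to 3NG+ gave 0 Hox calls in edgeR (5 at an unadjusted p of 0.05 or less, and 0 calls in DESeq2), against 1.02% of all genes lower and 0.557% higher. Hoxa7 went from 14, 12.9 and 5.83 CPM to 1.05, 3.95 and 1.13 CPM without overlap (log2 fold change -2.25 ± 0.77 SE, adjusted p = 0.124). Hoxa11 went from 4.02, 5.04 and 0 CPM to 0, 0.198 and 0 CPM (log2 fold change -5.20 ± 1.63 SE, adjusted p = 0.0959), and the third 3NG- library overlapped the 3NG+ cells. Between MKOS and OKMS 3NG+ cells there were likewise 0 calls in edgeR (7 at an unadjusted p of 0.05 or less, and 0 calls in DESeq2), against 0.345% of all genes higher and 0.339% lower. In 3 genes, Hoxa7 and Hoxa10 among them, every MKOS library was above all OKMS libraries (beside 13.1% of all genes), and no Hox gene did the opposite (4.1% of all genes). Hoxa10 had 1.47, 1.19 and 8.22 CPM in MKOS and 0.631, 0 and 0 CPM in OKMS 3NG+ cells (log2 difference 3.48 ± 1.16 SE, adjusted p = 0.17).

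Hoxa2, Hoxb5, Hoxc10 and Hoxd10 were singled out by the study, on these libraries, as falling faster with MKOS than with OKMS. Their values here are therefore not independent evidence of a direction. Hoxa2, which gives the second pharyngeal arch its identity, had 4.20 and 4.87 CPM in MKOS MEFs, 0, 0.443 and 1.22 CPM in MKOS 2NG- and 0.335, 0.157 and 0 CPM in MKOS 3NG- cells. With OKMS it had 1.11 and 4.47 CPM in MEFs, 1.02, 2.26 and 0.423 CPM in E-CAD+ 2NG- and 1.70, 3.57 and 0 CPM in E-CAD+ 3NG- cells, where MKOS and OKMS libraries overlapped. In E-CAD- cells Hoxa2 was at 5.31, 5.15 and 15.3 CPM (2NG-), above both OKMS MEF libraries. Hoxb5, a neck and trunk gene, had 0.819 and 4.43 CPM in MKOS MEFs and 0, 0 and 1.22 CPM in MKOS 2NG- cells, and 5.20 and 3.78 CPM in OKMS MEFs and no read in E-CAD+ 2NG- cells. At 3NG- it had 1.12, 0 and 0.228 CPM with MKOS and 2.14, 2.62 and 0 CPM with OKMS. Hoxc10, a lumbar gene, had 4.40 and 6.20 CPM in MKOS MEFs, 0.816, 0 and 0 CPM in 2NG- and 1.23, 0.630 and 0.228 CPM in 3NG- cells, while OKMS E-CAD+ 3NG- cells had 1.07, 0 and 0 CPM. Hoxd10 had 0, 0 and 0.228 CPM in MKOS 3NG- and 0.535, 0.714 and 0 CPM in OKMS E-CAD+ 3NG- cells. All 4 genes had reads in all 3 E-CAD- 2NG- libraries.

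The difference between the cassettes in the change from MEFs to E-CAD+ 2NG- and 3NG- cells was tested as an interaction. OKMS E-CAD- cells did not enter it. The study instead grouped genes by k-means on their course along the samples of each cassette, so the interaction is not the same measure. No Hox gene was called in edgeR (2 at an unadjusted p of 0.05 or less, and 0 calls in DESeq2), against 0.621% of all genes higher and 0.813% lower. The median over tested Hox genes was -1.96, where a negative value means the larger drop with OKMS. In 6 of the 34 genes, each without reads in at least 1 of the compared conditions, the standard error was not usable (1317 or more on the log2 scale), and the median of the other 28 was -2.01. Some of these 28 also lacked reads in a compared condition, Hoxb5, Hoxc6 and Hoxc10 in OKMS E-CAD+ 2NG- cells among them. Their fitted values rest on a count of 0, and no bounds were set for these medians. Hoxa7 had the smallest p (-3.00 ± 1.04 SE, adjusted p = 0.16). The interaction also takes in the difference between the starting MEFs. Hoxa7 averaged 19.5 CPM in OKMS and 5.13 CPM in MKOS MEFs (log2 difference 1.79 ± 0.90 SE, not called). The median of that MEF difference over tested Hox genes was 0.699, so a larger drop with OKMS is in part a higher start. The interaction value was 3.04 ± 1.89 SE for Hoxa2 (adjusted p = 0.525), -2.14 ± 1.78 SE for Hoxb5 (adjusted p = 0.694) and -2.57 ± 1.82 SE for Hoxc10 (adjusted p = 0.606). Hoxd10, with no read in the E-CAD+ 2NG- cells of either cassette and a fitted value of -0.56, was among the 6 genes.

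Established pluripotent cells differed among themselves. Without doxycycline, MKOS iPSCs held 3.32 and 0.887 CPM of Hox genes and OKMS iPSCs 6.80 and 0.891 CPM, within or below the range of ESCs. Against ESCs of the 2 transgenic TNG lines no Hox gene was called in edgeR (1 at an unadjusted p of 0.05 or less, Hoxa10, and 0 calls in DESeq2), against 1.13% of all genes higher and 0.269% lower. In 2i, MKOS iPSCs held 24.2 and 22.0 CPM and OKMS iPSCs 12.5 and 13.5 CPM, and D6 held 12.6 and 8.32 CPM. Every one of these 6 libraries was above every ESC library and every iPSC library without doxycycline. Fibroblast markers were at 28.8 to 51.7 CPM in 2i, 28.6 to 30.6 CPM in D6 and 15.7 to 39.6 CPM without doxycycline.

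**Figure D5:**
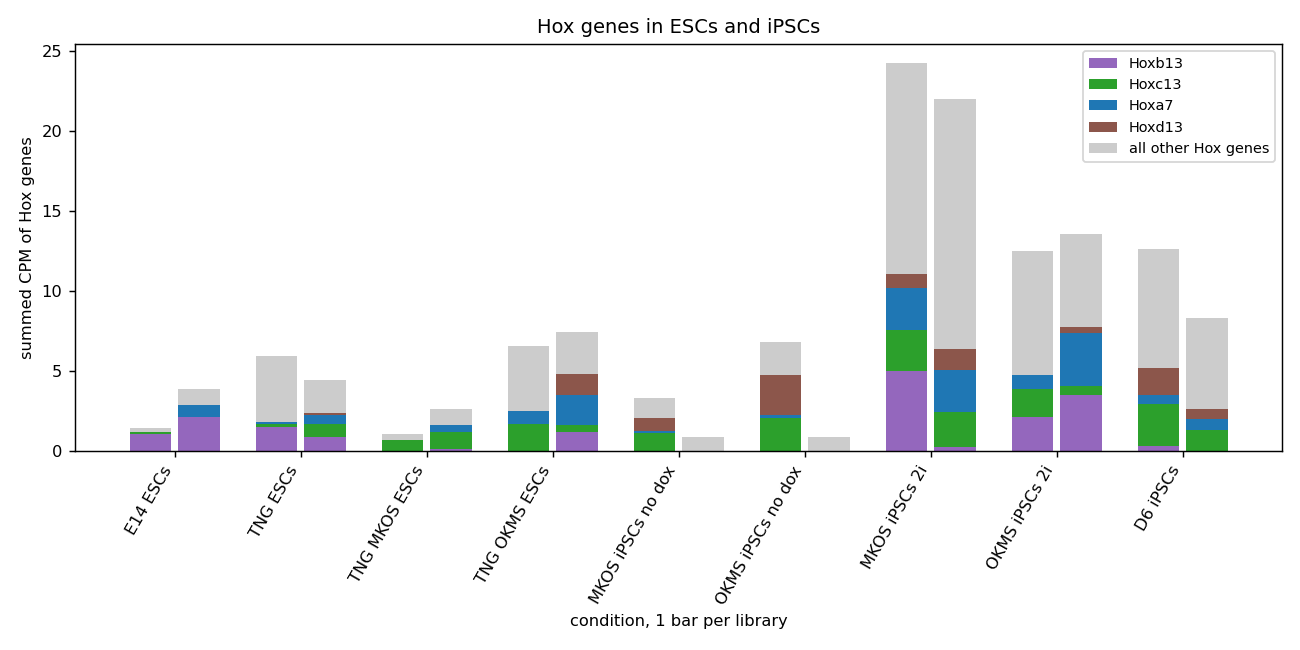
Summed CPM of Hox genes in each ESC and iPSC library (1 bar per library), split into Hoxb13, Hoxc13, Hoxa7, Hoxd13 and all other Hox genes. The iPSCs in 2i reach 12.5 to 24.2 CPM and D6 8.32 and 12.6 CPM, against 7.44 CPM in the highest ESC library.

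The comparison of 2i and doxycycline-free iPSCs was added after these values had been seen. Hoxa7 was the 1 Hox gene called higher in 2i (2.94% of those tested, beside 1.89% of all genes), and none was lower (2.45% of all genes). It had 2.59 and 2.64 CPM in MKOS and 0.881 and 3.34 CPM in OKMS iPSCs in 2i, 48 reads in all, against 2 reads in the 4 libraries without doxycycline (log2 fold change 4.53 ± 1.00 SE, adjusted p = 0.00403). DESeq2 called 3 Hox genes. Hoxc13 and Hoxb13 were among the genes with the highest mean levels over ESCs and iPSCs together. Hoxc13 had 2.59 and 2.20 CPM in MKOS iPSCs in 2i and 2.59 and 1.31 CPM in D6. Hoxb13 had 4.97 and 0.220 CPM in MKOS and 2.11 and 3.51 CPM in OKMS iPSCs in 2i, and no read in the 4 libraries without doxycycline (adjusted p = 0.0603).

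Partners and regulators of the Hox genes were taken from lists. Of 9 tested TALE cofactors, 7 were lower in ESCs than in MEFs and none higher, beside 30.4% of all genes lower and 29.6% higher. The cofactor genes Meis1 and Meis2 fell by 6.31 ± 0.63 and 5.18 ± 0.51 (SE) on the log2 scale. In MKOS 2NG- cells 5 of the 9 were lower (12% of all genes), Pknox2 by the most (log2 fold change -6.60 ± 1.52 SE). In OKMS E-CAD+ 2NG- cells 3 were lower (13.5% of all genes), Meis1 and Meis2 among them. The median log2 fold change of the list was -2.71 in MKOS 2NG-, -1.15 in OKMS E-CAD+ 2NG- and -0.05 in OKMS E-CAD- 2NG- cells. Of 10 genes of Polycomb repressive complex 2, 8 were higher in ESCs than in MEFs (29.6% of all genes) and none lower, among them Jarid2 (log2 fold change 4.01 ± 0.23 SE), Mtf2 (3.51 ± 0.22), Eed (2.54 ± 0.16) and the methyltransferase gene Ezh2 (2.29 ± 0.21). In MKOS 2NG-, OKMS E-CAD- 2NG- and OKMS E-CAD+ 2NG- cells 6, 4 and 7 of the 10 were higher and none lower, beside 15.0%, 11.7% and 15.7% of all genes higher. The 18 tested genes of Polycomb repressive complex 1 split in ESCs, with 8 higher (Cbx7 and Phc1 among them, 6.29 ± 0.42 and 4.02 ± 0.23 SE) and 8 lower (30.4% of all genes). Of 10 genes listed for MLL complexes, which counter Polycomb, 8 were higher in ESCs (29.6% of all genes) and none lower. The list also takes in Psip1 and Dot1l, which are not core subunits of these complexes and were both among the higher genes.

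Other genes of position and the neighbours of the clusters were read from lists too. Of 20 tested regional transcription factors of mesenchyme, 19 were lower in ESCs than in MEFs (30.4% of all genes), Hand2 and Tbx18 by the most (log2 fold changes -8.73 ± 0.79 and -8.12 ± 0.81 SE). Of these 20, 5, 4 and 8 were lower in MKOS 2NG-, OKMS E-CAD- 2NG- and OKMS E-CAD+ 2NG- cells, beside 12%, 10.1% and 13.5% of all genes, and none was higher. Of 16 tested genes of the retinoic acid pathway 11 were lower in ESCs and 2 higher (30.4% and 29.6% of all genes), with Aldh1a1, an enzyme of retinoic acid synthesis, and the receptor gene Rarb lowest (-8.22 ± 1.08 and -7.94 ± 1.42 SE). Among genes flanking the clusters the counts are set beside the 29.6% of all genes higher and 30.4% lower. In ESCs against MEFs, 3 of 8 HoxA neighbours were higher and 2 lower, 4 of 7 HoxB neighbours higher and 2 lower, 3 of 8 HoxC neighbours higher and 1 lower, and 1 of 7 HoxD neighbours higher and none lower. Sp3, the host gene of the transgene, was lower in MKOS 2NG- cells than in MKOS MEFs (log2 fold change -0.97 ± 0.34 SE, adjusted p = 0.0299).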

How the data were processed

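RNA was taken from MEFs, sorted reprogramming populations, ESCs and iPSCs and sequenced by the STRT method, which tags the 5′ ends of transcripts. The authors deposited 1 table of read counts for 24264 transcripts in 48 libraries, per the file headers with repeats and spike-ins, which were left out here. The submitters' processing notes name Bowtie 0.12.7 and mm10. The start positions in the table matched GRCm38, since 80.8% of 7832 plus-strand transcripts had a RefSeq start 91 to 111 bases after them. Whether reads were counted by strand is not given in the sources used here. No pair of libraries was identical (0 pairs).

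Counts were tested in R 4.3.3 with edgeR 4.0.16 (TMM, filterByExpr by condition, 1 coefficient per condition over all 48 libraries, quasi-likelihood test, Benjamini-Hochberg adjustment over all 15630 genes tested, false discovery rate of at most 0.05), checked on simulated data. DESeq2 1.42.0, other scalings, no filter, a replicate block and leaving out libraries were tried as alternatives. CPM used all transcript reads. Cluster sums were described without a test. Bounds against a group without reads used 3 reads over the group.

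Members, lists and tests were chosen with earlier results of these data known. The genes named are those the study names, the 12 highest in MEFs, the 3 highest in ESCs and iPSCs, every gene called between sorted populations or MEFs, and up to 4 genes with the largest called change from each other list. Values of Hoxb1, Hoxa4 and Hoxd4, genes named by a comparison of separate libraries and genes just past or short of a call were added after they had been seen. Some genes that these rules name are not reported here and are not drawn as single genes.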

Additional observations from a re-analysis of the deposited data

Results flagged for a closer look

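The summed Hox level stood above every ESC library in all libraries of 3 pluripotent conditions that enter none of the comparisons planned with ESCs. Its mean was 23.1 CPM in MKOS iPSCs in 2i, 13 CPM in OKMS iPSCs in 2i and 10.5 CPM in D6, against 7.44 CPM in the highest ESC library.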

How the results depend on the processing

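The count of Hox genes lower in ESCs than in MEFs stayed at 26 to 33 under all alternatives. In MKOS 2NG- cells against MKOS MEFs it was 9 with the compared conditions alone, 0 with DESeq2 and 0 to 4 when replicates were left out. In OKMS E-CAD- 2NG- cells it was 2 without the filter, 5 with the compared conditions alone, 2 without 7 libraries outside the study's averages and 0 to 2 when replicates were left out (1 without E-CAD- 2NG- replicate 2 or 3, 2 without all libraries numbered 3). In OKMS E-CAD+ 2NG- cells it was 8 with DESeq2 and 0 to 13 when replicates were left out (4 without all libraries numbered 1, 0 without all numbered 2, where the MEFs have 1 library assumed to vary like the other groups). Without the filter, MKOS against OKMS gave 2 calls at 2NG-, 1 at 3NG- and 1 in 3NG+, E-CAD+ against E-CAD- 2NG- gave 2, MKOS 3NG+ against 3NG- gave 1 and OKMS 3NG+ against 3NG- gave 5. With the compared conditions alone, MKOS against OKMS 2NG- gave 2, E-CAD+ against E-CAD- 2NG- 1, OKMS 3NG+ against 3NG- 1 and OKMS against MKOS MEFs 3. DESeq2 gave 1 for E-CAD+ against E-CAD- 2NG-. MKOS 3NG+ against 3NG- gave 1 without the 7 libraries and 0 to 1 when replicates were left out (1 without MKOS 3NG- replicate 3). OKMS 3NG+ against 3NG- gave 0 to 3 when replicates were left out. The causes were not tested. Replicate numbers did not pair the libraries by the rule used (23 of 84 same-numbered pairs correlated above 0.1), although 21 of 24 sorted libraries correlated best with their own number. With the replicate block, 1 Hox gene was called in OKMS E-CAD- 2NG- cells and 1 in E-CAD+ against E-CAD- 2NG- cells, and no other count moved by more than 1.5 times. In the interaction of cassette and change from MEFs, Hoxb5 ranged from -4.84 to 0.26 when replicates were left out and turned to 0.26 without all libraries numbered 3, 0.25 without the 7 libraries and 0.12 without MKOS 2NG- replicate 3. Hoxd10 ranged from -2.16 to 0.83 and turned to 0.07 and 0.83 without all libraries numbered 2 or 3, 0.85 without the 7 libraries and 0.60 without MKOS 3NG- replicate 3. With TMM-scaled library sizes the HoxA sum was 1.51 CPM in OKMS 3NG+ cells and the HoxB sum 31.6 CPM in OKMS E-CAD- 3NG- cells. DESeq2's size factors moved the median of all genes by -0.13 in ESCs against MEFs. In the shallowest library, OKMS 3NG+ replicate 2, 3 reads correspond to 2.10 CPM, so lower levels there rest on 1 or 2 reads.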

Other observations

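The antisense transcript Hoxa11as, which lies opposite Hoxa11, is no member but had reads too. It had 12.2 and 14 CPM in MKOS MEFs and 11.1 and 10.9 CPM in OKMS MEFs, above the Hoxa11 means of 7.97 and 4.55 CPM there. In MKOS 2NG- cells Hoxa11as had 7.65, 5.90 and 3.39 CPM and in MKOS 3NG- cells 4.02, 5.35 and 4.57 CPM, and in OKMS E-CAD+ 2NG- cells 0, 0 and 0.635 CPM. Like Hoxa11, it was above every OKMS E-CAD+ library in every MKOS library at 2NG-. Whether strand was used in counting is not known, so reads in stretches that both cover could have been assigned to either. The counts of the gene and its antisense partner were not the same. MKOS 3NG- replicate 3 had 4.57 CPM of Hoxa11as and no Hoxa11 read. Hotair, a transcript of the HoxC cluster, had 1 read in MKOS MEFs and 3 reads in OKMS E-CAD+ 3NG- cells.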
